A study of Rattus norvegicus with 78 samples.

Results

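The arrays described are the 20 that carried sperm RNA from Fischer 344 rats given 5 mg/kg/d of DBCP (1,2-dibromo-3-chloropropane), a soil fumigant toxic to male germ cells, and sampled with no recovery, of 78 arrays in all. They were chosen by title alone and by no measured value, and the question was how far arrays of 1 treatment differ from each other, in which genes, and together with which cell type markers. No group was compared with another. The other 58 arrays were from corn oil rats without recovery (20), DBCP rats after recovery (19) and corn oil rats after recovery (19), and they enter only where values are set beside those of the DBCP arrays. The text of the series gives an exposure of 3 months; the sources used here give neither ages nor the length of the recovery. The labels name the tissue as sperm and each array a biological replicate, whereas the series is titled for testis. Cauda epididymides, where mature sperm are stored, were punctured, and the sperm that came out were pelleted and treated with an ammonium chloride buffer that lyses red cells, so RNA of any other cell that left the tissue could enter a sample.

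A sperm cell stops transcription late in spermatid development, when transition proteins and then protamines replace histones, and keeps a residue of spermatid transcripts for the tail, the acrosome and sperm metabolism. Akap4, a kinase anchor protein of the fibrous sheath around the tail, is transcribed in late spermatids and stands here for spermatid transcripts. Cd74, the invariant chain that guides class II antigen presentation, stands for leukocytes, and Hbb, a beta globin, for red cells. In such mixtures a smaller number of cells of a type and less RNA per cell cannot be told apart.

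Each array gave log2 signals for 29214 probe sets, of which 15310 carry 1 gene symbol (14506 genes; a gene with several probe sets is shown by the brightest). The 20 array medians lay between 6.59 and 6.74, and all pairs of arrays correlated between 0.907 and 0.987 across probe sets. Replicates 2, 13 and 20 stood apart: their limma array weights, which fall as an array departs from the rest, were 0.416, 0.282 and 0.330, and results are given with and without these 3 arrays where they differ. The labelled cell type was borne out by its markers: the spermatid transcripts Akap4, Prm1 (a protamine), Odf1 (an outer dense fibre protein) and Smcp (a mitochondrial capsule protein) had mean log2 signals of 10.62, 13.16, 14.13 and 14.18. Cd74 (10.89) and Hbb (11.66) were measured on every array too.

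Akap4 varied most of the 3 markers. Its log2 signal was lowest on replicate 12 (9.67), had a median of 10.47 and was highest on replicate 13 (12.30), with an SD of 0.72 over the 20 arrays. Replicate 2 (11.98) was next to the top, and the other 18 arrays lay at 11.30 or below. Cd74 ran from 10.21 on replicate 7 through a median of 10.96 to 11.42 on replicate 5, with an SD of 0.37. Hbb ran from 10.90 on replicate 7 through a median of 11.67 to 12.38 on replicate 8, with an SD of 0.46. Replicate 7 was the lowest array for both Cd74 and Hbb.

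**Figure D1:**
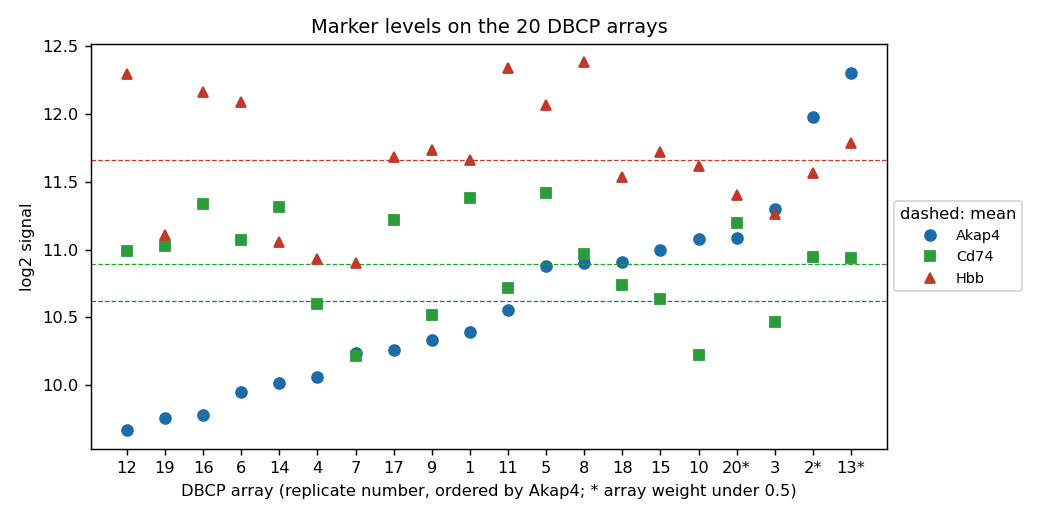
Log2 signal (y axis) of Akap4, Cd74 and Hbb on the 20 DBCP arrays, ordered from lowest to highest Akap4 (x axis, replicate number, with an asterisk for array weights under 0.5); points are single arrays and dashed lines the mean of each marker. Akap4 rises from 9.67 on replicate 12 to 12.30 on replicate 13 while Cd74 (r = -0.18 with Akap4) and Hbb (r = 0.019) do not follow that order.

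No pair of the 3 markers passed a test of correlation. Akap4 and Cd74 gave a Pearson r of -0.18 (permutation adjusted p = 0.664 over the 3 pairs) and a Spearman rho of -0.31 (adjusted p = 0.358). Akap4 and Hbb gave an r of 0.019 (permutation adjusted p = 0.937) and a rho of -0.045 (adjusted p = 0.851). Cd74 and Hbb gave an r of 0.31 (permutation adjusted p = 0.535) and a rho of 0.28 (adjusted p = 0.358). Without the 2 arrays farthest from the median of the first marker, the 3 values of r were -0.31, 0.012 and 0.17. Replicate numbers run from 1 to 20 and no batch is named, so r was also taken within numbers 1 to 10 and 11 to 20: Cd74 and Hbb gave 0.62 in the first set and -0.27 in the second, Akap4 and Cd74 0.015 and -0.40, and Akap4 and Hbb 0.11 and -0.033. These p-values do not show that a correlation is absent.

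Most transcripts varied little. The SD over the 20 arrays had a median of 0.20 over all probe sets and 0.18 over genes, and only 5% of probe sets exceeded 0.44. In the corn oil, DBCP recovery and corn oil recovery groups the median over probe sets was 0.18, 0.19 and 0.19, as a description. Among genes with a mean between 8 and 12, the smallest SDs were those of Fam89b (0.085), Card19 (0.094), Rps14, a protein of the small ribosomal subunit (0.11), Ccdc71 (0.11) and Homer3, a synaptic scaffold protein (0.11). The largest SD of a gene was 1.15.

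Of the 30 genes with the largest SD (0.75 to 1.15, the next gene having 0.74), 27 rose with Akap4. Across all probe sets a limma slope on Akap4 passed at an adjusted p under 0.05 for 1713 with a positive slope (5.86% of those tested) and 1741 with a negative one (5.96%), a split that was 1836 and 1269 after quantile normalization and 2132 and 930 with each array centred on its median. The 27 genes had slopes of 0.90 to 1.38 log2 units per unit of Akap4, r of 0.856 to 0.968 and limma adjusted p-values of at most 5.15e-06. By permutation of r the adjusted p of each was 0.000519, the smallest that 100000 resamples gave, and rho ran from 0.836 to 0.964 (adjusted p at most 0.00195). Without replicates 2, 13 and 20 all 27 still passed, with r of 0.730 to 0.944, against a background of 1.57% of probe sets with a positive slope. Without the 2 arrays farthest from the Akap4 median, r was 0.754 to 0.943. Within replicate numbers 1 to 10 r was 0.798 to 0.981, and within 11 to 20 it was 0.876 to 0.988. On Cd74 and Hbb none of the 30 genes passed, with r between -0.22 and 0.051 and between -0.062 and 0.12 for the 27. Of the 27 genes, 26 were highest on replicate 13 and 1 on replicate 2, while 18 were lowest on replicate 12 and 5 on replicate 7. The level of these genes thus runs along the same order of arrays as Akap4.

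**Figure D2:**
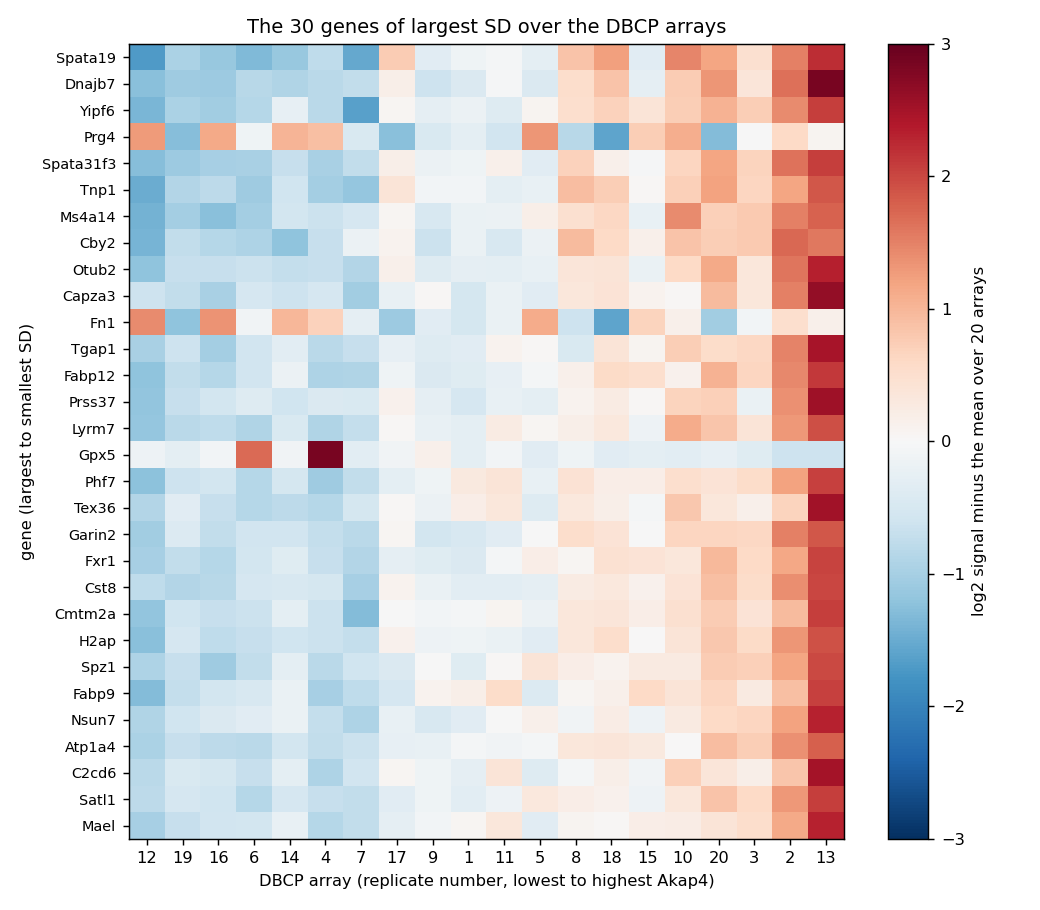
Log2 signal minus the mean over the 20 arrays (colour) for the 30 genes of largest SD (rows, largest SD at the top) on the DBCP arrays ordered from lowest to highest Akap4 (columns, replicate number). 27 rows pass from blue to red along the order, and Prg4, Fn1 and Gpx5 do not.

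Spata19, a mitochondrial protein of the sperm midpiece, had the largest SD of all genes. Its log2 signal ran from 8.23 on replicate 12 through a median of 9.70 to 12.14 on replicate 13, and it rose by 1.38 ± 0.17 (SE, n = 20 arrays) per unit of Akap4 (limma adjusted p = 2.89e-06). Dnajb7, a DnaJ-family co-chaperone, ran from 6.55 through 7.46 to 10.66, on the same lowest and highest arrays. Tnp1, the transition protein that takes the place of histones before the protamines, ran from 9.53 through 10.93 to 12.88 (SD 0.93) and gave a slope of 1.15 ± 0.12 (limma adjusted p = 3.12e-07). These 3 genes have slopes above 1. They also spread wider over the arrays than Akap4 itself, but so does every gene of the list. That was set by choosing the genes for their large SD and is no finding.

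Other genes of the 27 serve several parts of the late spermatid. Capza3, the sperm form of an actin capping subunit, ran from 5.91 on replicate 7 through 6.74 to 9.59 on replicate 13. Phf7, a histone ubiquitin ligase of the change from histones to protamines, ran from 7.95 through 9.22 to 11.24. Atp1a4, the sodium pump of the sperm tail, ran from 7.61 through 8.47 to 10.35, with an r of 0.965. Mael, a protein of the piRNA pathway that silences transposons, ran from 7.23 through 8.21 to 10.52, with an r of 0.915. The high end of each was replicate 13, which is also the array with the lowest weight. Prss37 (a serine protease family member of the sperm head), Fabp9 (a fatty acid binding protein of the perforatorium), Lyrm7 (an assembly factor of respiratory complex III) and Otub2 (a deubiquitinase) gave r of 0.892, 0.878, 0.934 and 0.925. Fxr1, an RNA-binding protein, rose with Akap4 (r = 0.960) by its brighter probe set (mean 9.60), whereas its other probe set (mean 7.23) had an r of -0.18, so the probe sets of this gene disagree. Of the 30 probe sets with the largest SD, 22 had no single gene symbol and stay unnamed. Of these 22, 4 rose with Akap4, none fell with it, and none passed on Cd74 or Hbb. The 27 of 30 thus holds for genes with a single symbol, and most of the 30 probe sets of largest SD did not pass on Akap4.

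The same 27 genes were looked up in the arrays of the other groups, which had no part in their choice. Their r with Akap4 had a median of 0.897 (0.687 to 0.963) over the 20 corn oil arrays, 0.892 (0.355 to 0.959) over the 19 DBCP recovery arrays and 0.798 (0.188 to 0.938) over the 19 corn oil recovery arrays. The SD of Akap4 was 0.62, 0.59 and 0.47 in these groups. Of the 30 genes of largest SD, 14 (46.7% of each list) were among the 30 of largest SD in corn oil, 5 (16.7%) in DBCP recovery and 4 (13.3%) in corn oil recovery. Since the list was taken for its large SD in the DBCP arrays, its lower SDs elsewhere are no finding.

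For genes that move together, the stretch before the gene start was searched for TGACGTCA, the letters of the cAMP response element that the spermatid regulator Crem binds, and for its core TGACG, on both strands. TGACGTCA reads the same on both strands and holds TGACG on each. In RefSeq's windows from 250 bases before to 50 after the start (GRCr8), 25 of the 27 genes were matched, 1 of which held TGACGTCA (4%) and 7 TGACG (28%). Among 27457 windows of all genes the shares were 1.91% and 22%, and among 11951 of genes on the array 2.46% and 26.3%. The shares lie near those of all promoters. Shown are the 150 bases before the start of Tnp1 (chr9:82044279-82044428, minus strand), whose TGACGTCA begins 113 bases before the start, of Cby2, a chibby-family gene with 1 TGACG (chr15:57327286-57327435, minus strand), and of Spata19 (chr8:34073202-34073351, plus strand) and Akap4 (chrX:18117550-18117699, minus strand), which hold none in the window. Capitals mark the motif, and a match of letters is a description.
Tnp1: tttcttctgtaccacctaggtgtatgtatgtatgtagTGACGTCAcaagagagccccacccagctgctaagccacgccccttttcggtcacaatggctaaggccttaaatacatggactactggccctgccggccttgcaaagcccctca
Cby2: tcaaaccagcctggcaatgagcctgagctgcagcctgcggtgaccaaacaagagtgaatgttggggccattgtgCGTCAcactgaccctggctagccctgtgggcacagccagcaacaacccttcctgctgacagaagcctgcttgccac
Spata19: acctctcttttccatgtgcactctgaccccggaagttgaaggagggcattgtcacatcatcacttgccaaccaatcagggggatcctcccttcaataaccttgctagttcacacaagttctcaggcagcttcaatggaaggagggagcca
Akap4: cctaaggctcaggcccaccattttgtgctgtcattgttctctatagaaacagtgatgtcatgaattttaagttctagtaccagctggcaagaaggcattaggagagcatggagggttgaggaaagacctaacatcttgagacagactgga

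The genes most like Akap4 over the 20 arrays were Stat4, a transcription factor of cytokine signalling, with an r of 0.987 (0.977 without replicates 2, 13 and 20), Garin1a, a partner of the Golgi protein RAB2 (0.985 and 0.972), and Ubqlnl, a ubiquilin-like gene (0.983 and 0.975). Stat4 ran from 9.18 through a median of 10.16 to 11.87. Its r with Akap4 was 0.984 in corn oil, 0.972 in DBCP recovery and 0.949 in corn oil recovery. 1700013G24Rikl, MGC93861, Crisp2 (an acrosomal and tail protein), Gsg1 (a germ cell membrane protein), Spz1 (a spermatid transcription factor), Stard6 (a lipid transfer protein) and Actl11 (an actin-like gene) followed, with r of 0.966 to 0.972. At the other end, Rhot2, a GTPase of the mitochondrial outer membrane, had an r of -0.895 and a slope of -0.16 ± 0.03 (limma adjusted p = 0.00111), with levels only between 6.61 and 7.09. Coa4, Or6b2, Krtap31-1 and Or6b2b had r of -0.823 to -0.812 and slopes of -0.17 to -0.28. Without replicates 2, 13 and 20 the r of Rhot2 was -0.913, that of Coa4 -0.650, that of Or6b2 -0.565 and that of Krtap31-1 -0.552. In corn oil, DBCP recovery and corn oil recovery the 10 highest genes had r of 0.932 to 0.986, 0.888 to 0.981 and 0.829 to 0.959 with Akap4, and the 5 lowest -0.679 to -0.204, -0.572 to -0.0019 and -0.474 to -0.124.

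The positive side was steadier than the negative. Without replicates 2, 13 and 20, 458 probe sets had a positive slope at the same threshold, 457 of them among the 1713, and 15 a negative one, 5 of them among the 1741. Without replicate 13 alone the counts were 946 and 164, and without replicate 2 alone 1363 and 342. Akap4 itself moved with the array: its r with the array median was -0.67 (permutation adjusted p = 0.00816 over 6 relations, rho -0.46, adjusted p = 0.215) and with the interquartile range of the array 0.57 (permutation adjusted p = 0.0286, rho 0.30, adjusted p = 0.289). Without the 3 low-weight arrays these were -0.18 and -0.16. The part of array width in the negative slopes was not tested.

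Read by gene list, most members of 5 spermatid lists rose with Akap4. All genes had a median r with Akap4 of -0.15, and 7.61% of genes rose. Of 14 genes of spermatid chromatin on the array 11 rose (median r 0.73), of 18 sperm tail genes 13 (0.82), of 20 acrosome genes 12 (0.64), of 15 genes of sperm energy metabolism 13 (0.75) and of 19 spermatid regulators 15 (0.85). Sperm channels gave 4 of 10 (0.52), and the 17 meiosis genes, which are made before the spermatid stage, 6 higher and 1 lower (0.42). No member of the first 6 lists fell. Without replicates 2, 13 and 20 the counts that rose were 4, 5, 6, 4, 9, 1 and 0 in the order of these 7 lists. Without replicate 13 alone they were 8, 10, 7, 8, 11, 2 and 3, which moved the acrosome, energy, channel and meiosis counts by over 1.5 times.

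Within the chromatin list, the protamine Prm2 rose with a slope of 0.88 ± 0.08 (levels 8.88 to 11.40, limma adjusted p = 5.72e-08). Prm1 rose too (r = 0.80), although its SD was only 0.21 around 13.16. In the tail list the fibrous sheath gene Fscb had an r of 0.95, the outer dense fibre gene Odf4 0.93 and Gapdhs, the sperm form of a glycolytic enzyme bound to the sheath, 0.96. Odf1 (SD 0.09, r 0.13) and Smcp (SD 0.07, r 0.37) did not pass, and both had means near the highest value of any array, 14.67. The acrosome genes Adam3a and Adam5 (membrane proteins of sperm adhesion) had r of 0.94 and 0.92, and Dkkl1 0.89, whereas the zona binding protein gene Zpbp had 0.26 and did not pass. In energy metabolism Acsbg2, an acyl-CoA synthetase, had an r of 0.90, Gk2, a glycerol kinase, 0.77 and Ldhc, the germ cell lactate dehydrogenase, 0.67.

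Members of lists for other cells also rose with Akap4. Lhcgr, the luteinising hormone receptor of Leydig cells, had an r of 0.91 with levels of 5.87 to 7.75, while the other 7 Leydig genes on the array did not pass. Aif1, listed for macrophages, had an r of 0.84, and Lcn2, listed for neutrophils, 0.80. Clu, a chaperone listed for Sertoli cells, rose with a slope of 0.33 ± 0.09 (limma adjusted p = 0.0153) over all arrays and had a slope of -0.016 without replicates 2, 13 and 20 (adjusted p = 0.975). Car2, a carbonic anhydrase listed for basal and clear cells, had 0.68. Aif1, Lcn2 and Car2 did not pass without replicates 2, 13 and 20. Cst8, a cystatin listed for epididymal principal cells, was 1 of the 27 genes above (r = 0.94). Other listed genes fell with Akap4, among them the macrophage receptors Mrc1 (r = -0.74) and Cd163 (-0.58), and the follicle stimulating hormone receptor Fshr of Sertoli cells (-0.60). None of these falls passed without replicates 2, 13 and 20. The leukocyte, macrophage, B cell and epididymal lists had median r of -0.14, -0.34, -0.43 and -0.30 beside the median of -0.15 over all genes.

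**Figure D3:**
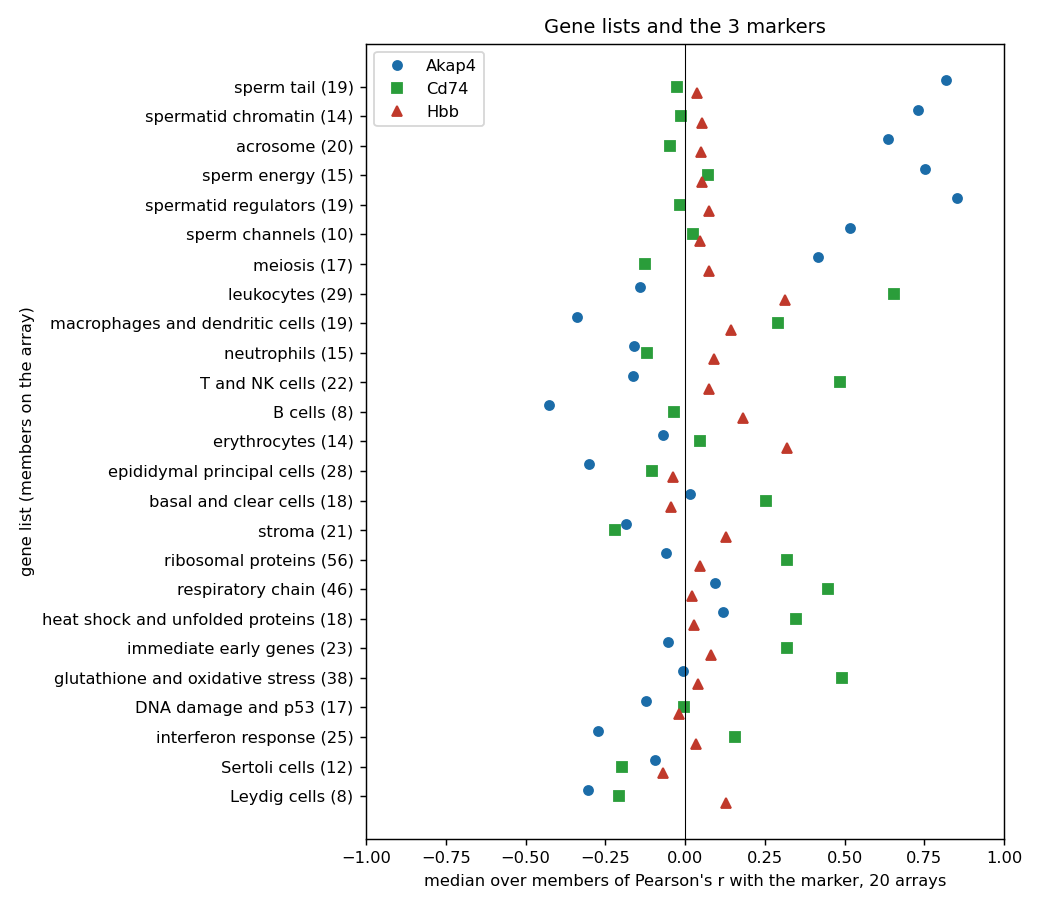
Median over the members of each list of Pearson's r with Akap4, Cd74 and Hbb over the 20 DBCP arrays (x axis), for 25 gene lists (y axis, with the number of members on the array); the marker itself is left out of its list. Akap4 points lie to the right for the spermatid lists (up to 0.85). Cd74 points do so for leukocytes (0.65) and, less so, for glutathione (0.49), T and NK cell (0.48) and respiratory chain genes (0.45). Hbb points do so for erythrocytes (0.32) and leukocytes (0.31).

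The more a gene varied, the more often it rose with Akap4. Genes were put in 10 equal groups by SD. In the group with the largest SD (0.34 to 1.15) 43.0% rose with Akap4, in the next (0.27 to 0.34) 12.6%, and in the group with the smallest SD 0.276%. Genes that fell made up 11.4% of the second group from the top against 6.20% of the top one. For Cd74 the share of genes that rose was 2.96% in the top group and 3.24% in the next. A gene with little spread can rarely pass, so these shares describe where the called genes lie and no more.

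**Figure D4:**
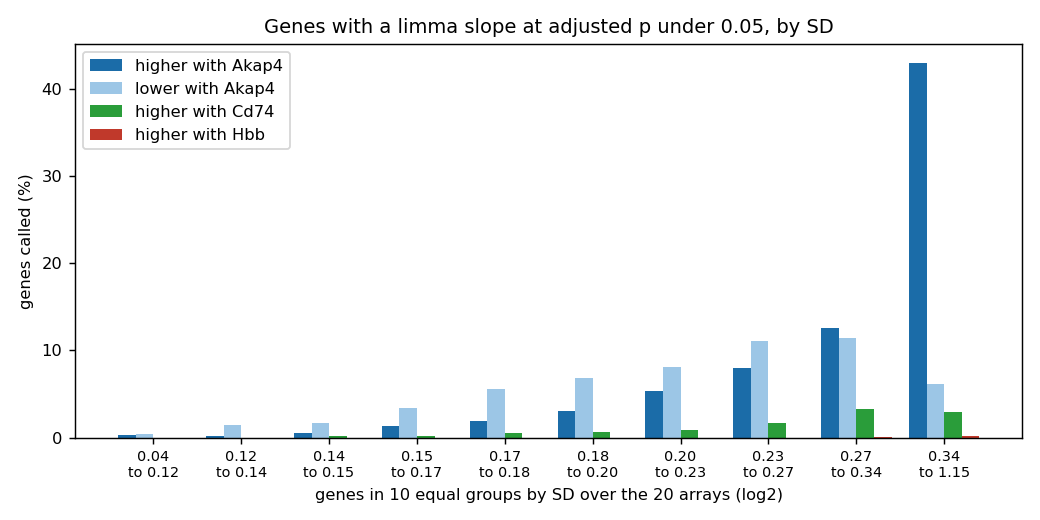
Share of genes (y axis, percent) with a limma slope at an adjusted p under 0.05 on Akap4 (higher or lower), Cd74 (higher) or Hbb (higher), in 10 equal groups of genes by SD over the 20 DBCP arrays (x axis, range of SD in log2 units). Over all 20 arrays the share higher with Akap4 climbs to 43.0% in the group of largest SD.

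Cd74 went with a smaller set of genes, leukocyte genes among them. On Cd74, 183 probe sets had a positive slope (0.626% of those tested) and 22 a negative one (0.0753%) at a limma adjusted p under 0.05, against 127 and 57 after quantile normalization. Of 28 leukocyte genes on the array 11 rose and none fell, with a median r of 0.65 against -0.021 over all genes. The 11 were Ptprc, RT1-Ba, RT1-Bb, RT1-Da, RT1-DMa, Lcp1, Laptm5, Coro1a, Tyrobp, Arhgdib and Rac2. Without replicates 2, 13 and 20 the count was again 11, against a background of 1.03% of probe sets higher and 0.164% lower, and leaving out 1 array gave between 8 (without replicate 7) and 17 (without replicate 10). Lists that are not of immune cells leaned to Cd74 too. Glutathione and oxidative stress genes had a median r of 0.49 (3 of 38 rose). Respiratory chain genes had 0.45 (0 of 46) and ribosomal protein genes 0.32 (3 of 56). Without replicate 3 no glutathione or ribosomal protein gene rose. In the fit on all 3 markers 15, 13 and 14 genes of these lists rose with Cd74, beside 16 leukocyte genes and 1892 probe sets in all.

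The highest r with Cd74 was that of Ifi47, an interferon-induced GTPase. Its log2 signal ran from 6.84 on replicate 7 through a median of 7.33 to 7.67 on replicate 14, with an r of 0.888 and a slope of 0.55 ± 0.08 (limma adjusted p = 0.00277). RT1-Bb, a class II chain that Cd74 escorts, ran from 7.82 through 8.39 to 8.88 (r = 0.881, limma adjusted p = 0.00149). Apoe, a lipid carrier that macrophages secrete, ran from 8.92 through 9.61 to 10.42 (r = 0.874, limma adjusted p = 0.00149). Syngr2, Laptm5 (a lysosomal protein of blood cells), Rac2 (a GTPase of blood cells), RT1-DMa, Coro1a (an actin-binding protein of leukocytes), RT1-Da and RT1-Ba followed with r of 0.835 to 0.872. By permutation of r all 10 had adjusted p-values of 0.0162 or 0.0209, and their r was 0.841 to 0.958 within replicate numbers 1 to 10 and 0.715 to 0.894 within 11 to 20. In the other groups the r of these 10 genes with Cd74 ran from 0.462 to 0.923 in corn oil, 0.373 to 0.887 in DBCP recovery and 0.426 to 0.908 in corn oil recovery. The class II genes RT1-Ba, RT1-Bb and RT1-Da had 0.765 to 0.923, RT1-DMa 0.596, 0.682 and 0.652, and Ifi47 0.724, 0.571 and 0.552 in corn oil, DBCP recovery and corn oil recovery. The difference between the groups was not tested.

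Of 22 genes of T and natural killer cells 3 rose with Cd74 (none without replicate 3, and none after quantile normalization), namely Cd4 (r = 0.78), Nkg7, a granule protein of cytotoxic cells (0.72), and Klrk1, a natural killer receptor (0.72), with a median r of 0.48 over the list. Of 25 interferon response genes 2 rose, Ifi47 and Gbp5, another induced GTPase (0.79). None of 19 macrophage and dendritic cell genes, 15 neutrophil genes or 8 B cell genes passed, with median r of 0.29, -0.12 and -0.037. Ptprc, the pan-leukocyte phosphatase CD45, ran from 7.59 through 8.16 to 8.73 and rose with a slope of 0.69 ± 0.14 (limma adjusted p = 0.0322, adjusted p = 0.0559 by permutation of r). The lowest r with Cd74 were those of Alkbh7 (-0.769, limma adjusted p = 0.0381), Matcap1 (-0.763, 0.0568), Gapdh-ps1 (-0.751, 0.0308), Dzip1l (-0.749, 0.048) and Lrrc10 (-0.746, 0.0456). Alkbh7 is a mitochondrial dioxygenase, and its range was only 6.70 to 7.27.

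The count on Cd74 depended on single arrays more than that on Akap4. It was 23 without replicate 3, 24 without 14, 37 without 7, 52 without 16, 62 without 4, 72 without 5, 107 without 15, 116 without 11, 119 without 18, 123 without 20 and 136 without 19, and it was 321 without 13, 389 without 8 and 538 without 10, against 205 over all arrays. Within either set of 10 arrays no probe set passed. Centring each array on its median gave 944 with a positive and 238 with a negative slope.

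Hbb went with few genes. 4 probe sets had a positive slope on it (0.0137% of those tested) and none a negative one, by limma at an adjusted p under 0.05. Of the 29213 tested, 443 had an unadjusted limma p under 0.05, a share below 0.05. The 3 named among the 4 were Hbb-b1, a second beta globin, Alas2, the heme synthesis enzyme of red cell precursors, and Cdc25b, a cell cycle phosphatase. Hbb-b1 ran from 9.59 on replicate 7 through a median of 10.41 to 11.05 on replicate 11 (r = 0.934, slope 0.84 ± 0.08, limma adjusted p = 5.34e-06). Alas2 ran from 7.44 through 8.21 to 8.87 on the same arrays (r = 0.865, slope 0.74 ± 0.10, limma adjusted p = 0.00177). Cdc25b ran from 7.90 on replicate 19 through 8.35 to 9.01 on replicate 5 (r = 0.829, limma adjusted p = 0.0158). By permutation of r none passed, because the smallest p that 100000 resamples can give, 1e-05, adjusts to 0.0974.

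The same genes went with Hbb on the arrays of the other groups. Hbb and Hbb-b1 gave r of 0.955 in corn oil, 0.920 in DBCP recovery and 0.946 in corn oil recovery. Alas2 gave 0.951, 0.878 and 0.911, and Cdc25b 0.919, 0.764 and 0.856. Of the 13 other erythrocyte genes on the array 2 passed on Hbb, Hbb-b1 and Alas2. Slc4a1, the anion exchanger of the red cell membrane, had an r of 0.45 and Epb41, a membrane skeleton protein, 0.55, and neither passed. Oasl, Rbm38, Pde4b, Utrn, Il1rn, Ybx3 and Psmd13 had the next highest r (0.63 to 0.75), and Hey2, Necab3, Vgll2, Suv39h1 and Pdcd1lg2 the lowest (-0.76 to -0.62), none of them past the threshold.

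Akap4 alone took 21.98% of the variance of all probe sets over the 20 arrays, Cd74 11.3% and Hbb 2.64%, and a fit on all 3 took 39.5%. With any slope fitted on 20 arrays part of such a share is free, and the shares above, also those of single markers, are not adjusted for this. For the fit on all 3, the adjusted share had a median of 19.0% over genes and exceeded 50% in 1505 genes (10.4%). Among the 30 genes of largest SD it exceeded 50% in 27 and stayed under 10% in 3. The first principal component held 34.6% of the variance, with an r of -0.96 with the array median, 0.95 with the interquartile range and 0.69 with Akap4. Replicates 2, 13 and 20 scored 45.3, 64.2 and 46.3 on it, and every other array 6.30 or less. Components were not taken without these 3 arrays. The second component held 13.6%, with an r of 0.60 with Cd74 and -0.55 with Akap4.

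The 3 genes of the 30 that did not go with Akap4 were Prg4, Fn1 and Gpx5. They had the largest residual SD after the fit on all 3 markers (1.04, 0.92 and 0.79), followed by Slpi, Ccl2, Ndufb6, Defb39, Adam7, Spata19 and Defb43. For Prg4, Fn1 and Gpx5 this was nearly fixed by their large SD and the small share that the markers took. The 10 genes of largest residual SD gave 45 pairs, taken on log2 signals and not on residuals. Of these pairs 9 passed at a permutation adjusted p under 0.05, all with positive r. The pairs fell into a group of Prg4, Fn1, Slpi and Ccl2 (r of 0.927 to 0.984) and a group of Ndufb6, Defb39 and Defb43 (0.872 to 0.896). Prg4, Adam7, Defb43 and Gpx5 were then taken as the genes to describe these patterns, a choice made after their values were seen.

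Prg4, the joint lubricant proteoglycan lubricin, ran from 6.53 on replicate 18 through a median of 8.06 to 9.44 on replicate 5. Replicates 17, 18, 19 and 20 were the 4 lowest, at 6.88 or below, and the next array was at 7.28. Slpi, a secreted protease inhibitor, followed it with an r of 0.984 and Fn1, the matrix protein fibronectin, with 0.960. C6, a complement component, gave 0.935, Ccl2, a chemokine that draws monocytes, 0.934, and Lyve1, a hyaluronan receptor of lymph vessels and some tissue macrophages, 0.930. Cmahp, Tgfb2, F5 (coagulation factor V), Axl (a receptor for dying cells on phagocytes) and Fcgr2b (an inhibitory Fc receptor) completed the 10, with r of 0.885 to 0.909. On Prg4 40 probe sets had a positive slope (0.137% of those tested) and none a negative one, by limma at an adjusted p under 0.05. There were 39 and 2 without replicates 2, 13 and 20, and 27 to 45 in all without any 1 array.

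Prg4 passed no test of correlation with the 3 markers. It had an r of -0.039 with Akap4, 0.033 with Cd74 and 0.13 with Hbb (permutation adjusted p = 0.969 for each, over 12 relations, with rho of -0.13, 0.11 and 0.18 and adjusted p of 0.869, 0.869 and 0.799). Its 10 most like genes were then correlated with Prg4 on the arrays of the other groups, 30 relations in all. The r was 0.814 to 0.963 in corn oil, 0.827 to 0.976 in DBCP recovery and 0.808 to 0.978 in corn oil recovery, each positive and with a permutation adjusted p of at most 5e-05. The lowest Spearman coefficient was in DBCP recovery, at 0.593 (adjusted p = 0.00862), where r without the 2 arrays farthest from the Prg4 median went down to 0.494. Of the lists, 2 of 29 leukocyte genes, 2 of 19 genes of macrophages and dendritic cells, 3 of 23 immediate early genes and 1 of 21 stroma genes (Fn1) rose with Prg4. Leaving out 1 array gave 0 to 3 leukocyte genes, 1 to 4 macrophage genes and 1 to 4 immediate early genes.

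**Figure D5:**
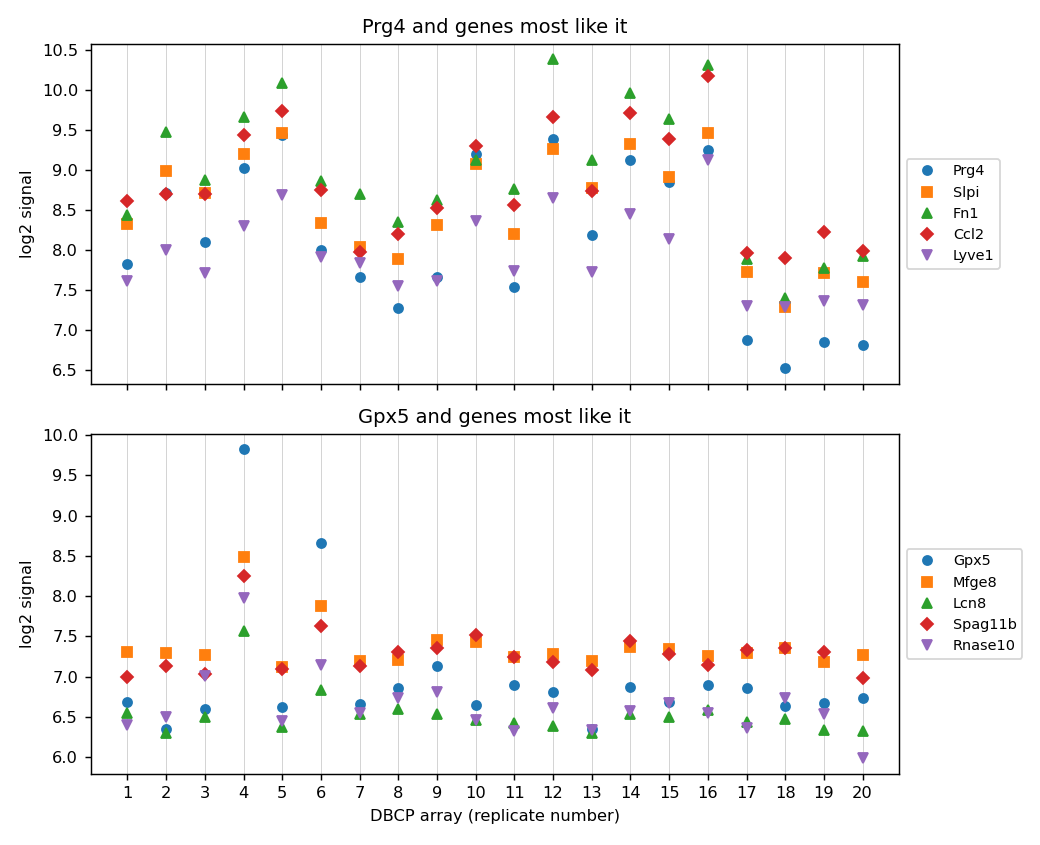
Log2 signal (y axis) on each of the 20 DBCP arrays (x axis, replicate number) of Prg4, Slpi, Fn1, Ccl2 and Lyve1 (top) and of Gpx5, Mfge8, Lcn8, Spag11b and Rnase10 (bottom); points are single arrays. The top genes go up and down together and are low on replicates 17 to 20, and the bottom genes are high on replicate 4 and, less so, on replicate 6.

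Gpx5, a glutathione peroxidase that the epididymis secretes, was high on only 2 arrays. Its log2 signal was 9.82 on replicate 4 and 8.67 on replicate 6, and between 6.35 and 7.13 on the other 18. Because the values fall into 2 clusters, r with Gpx5 served only to rank genes and is not given as a relation. The 45 pairs above hold 9 with Gpx5, none of which passed. Mfge8, a milk fat globule protein, was 8.49 and 7.88 on these arrays and at most 7.46 on the others. Cd34, a surface protein of blood vessel lining and stem cells, was 8.04 and 7.79 against at most 7.19, and Gpr155, an integral membrane protein, 6.98 and 6.76 against at most 6.52. Lcn8, an epididymal lipocalin, was 7.57 and 6.83 against at most 6.60. Spag11b, an epididymal defensin-like protein, was 8.25 and 7.63 against at most 7.52, and Rnase10, an epididymal protein of the ribonuclease family, 7.98 and 7.14 against at most 7.01. These 6 genes, the highest by r with Gpx5, were higher on both arrays than on any other. They were found by that likeness, so this is a description. The corn oil and corn oil recovery groups also held an array with high Gpx5 (10.20 and 10.87, medians 6.92 and 6.88), whereas the highest in DBCP recovery was 7.98.

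Adam7, a membrane protein that epididymal principal cells pass to sperm, ran from 7.45 on replicate 3 through 8.45 to 9.43 on replicate 16. The genes most like it were Man2b1 and Glb1, lysosomal glycosidases (r = 0.922 and 0.889), Defb26, a beta-defensin (0.878), Manba (0.866), Pygl (0.865), Npc2, a sterol carrier of epididymal fluid (0.857), Sptan1 (0.855), Defb23 (0.846), Asah2 (0.846) and Car5b (0.844). With Cd74 these 10 genes had r of 0.47 to 0.68 over the DBCP arrays. Adam7 itself had an r of 0.49 with Cd74 (permutation adjusted p = 0.283 over 12 relations, rho 0.53, adjusted p = 0.215). It had -0.16 with Akap4 and 0.16 with Hbb (permutation adjusted p = 0.969 for each). In the other groups the r of these 10 genes with Adam7 ran from -0.11 to 0.898 in corn oil, 0.17 to 0.851 in DBCP recovery and 0.44 to 0.724 in corn oil recovery. Glb1 gave 0.898, 0.835 and 0.703 in that order, Manba 0.415, 0.614 and 0.444, Pygl 0.234, 0.215 and 0.558, and Sptan1 -0.11, 0.17 and 0.61. On Adam7 128 probe sets had a positive slope (0.438%) and 1 a negative one (0.00342%) by limma at an adjusted p under 0.05. The count of 129 became 49 without replicate 16, 53 without 20, 57 without 3, 71 without 7, 591 without 4, 29 without replicates 2, 13 and 20, 83 after quantile normalization and 199 with median centring. Of 27 epididymal principal cell genes other than Adam7 itself 2 rose with it, and 1 did without replicate 20. Heat shock genes (2 of 18) and glutathione genes (2 of 38) rose too.

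Defb43, a beta-defensin of the epididymis, went with genes of many kinds. It ran from 8.71 on replicate 7 through 9.69 to 11.27 on replicate 20. The genes most like it were Ndufb11, a subunit of respiratory complex I (r = 0.961), Psmb5, a proteasome subunit (0.953), Chrdl2 (0.947), and Ndufs4, another complex I subunit (0.934), followed by Emc7, Vkorc1, Coro1b, Zcrb1, Srp72 and Defb49. On Defb43 3089 probe sets had a positive slope and 3084 a negative one (10.6% each), against 2860 and 2020 after quantile normalization and 3901 and 1808 with median centring. Of 46 respiratory chain genes 33 rose with Defb43, of 56 ribosomal protein genes 36 and of 38 glutathione and oxidative stress genes 22, and none of these fell. Of 27 epididymal principal cell genes other than Defb43 itself, 4 rose and 4 fell, near the share of all probe sets each way. Markers of other cells moved too: 12 of 29 leukocyte genes, 9 of 18 basal and clear cell genes and 5 of 22 genes of T and natural killer cells rose, as did 9 of 18 heat shock genes. Of 21 stroma genes 6 fell and 2 rose, and 2 of 18 basal and clear cell genes fell. The 2 stroma genes that rose and the 2 basal and clear cell genes that fell are again near the share of all probe sets. The part of these cells in the result was not tested. Without replicate 20 the leukocyte, basal and clear cell, T and natural killer and heat shock counts that rose were 5, 2, 1 and 5, and 2 stroma genes fell. For the first 3 lists, without replicate 20, the top of Defb43, the counts were 23, 18 and 12 and the probe sets 1181 and 391. They were 23, 16 and 11, and 1198 and 335, without replicates 2, 13 and 20. Quantile normalization gave 30, 23 and 21, with 2 ribosomal protein genes lower. Defb43 gave an r of 0.45 with Cd74 (permutation adjusted p = 0.283, rho 0.44, adjusted p = 0.312) and 0.055 with Akap4 (0.969, rho 0.012, 0.961). In the other groups the r of the 10 genes with Defb43 ran from 0.389 to 0.953 in corn oil, 0.423 to 0.930 in DBCP recovery and 0.417 to 0.911 in corn oil recovery. Chrdl2 gave 0.953, 0.927 and 0.911, and Coro1b 0.389, 0.423 and 0.523.

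Adding Prg4, Adam7 and Defb43 to the 3 markers took the share of the variance from 39.5% to 56.9% over the 20 arrays, with 6 slopes fitted. No p is attached to this, because the 3 genes were chosen for their residual spread.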

How the data were processed

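The deposited values are log2 signals per probe set on 78 arrays; the authors' table was used as it stands, on its own scale. Per the submitters' processing notes limma was used, without a version; how background and scale were set was not given in the sources used here. Symbols came from the platform's annotation (323 probe sets with several symbols and 13581 unnamed ones name no gene), and 15279 matched RefSeq by Entrez identifier. The SD was taken over the 20 DBCP arrays. Slopes on each marker were fitted over all probe sets other than the marker's with limma 3.58.1 in R 4.3.3 (lmFit, eBayes, Benjamini-Hochberg, threshold 0.05). The fit was also run on simulated data with known slopes, in which probe sets otherwise varied independently. That run cannot tell how calls fare under variation that many probe sets of an array share. Pearson's r and Spearman's rho had two-sided permutation p-values (100000 resamples). With arrays, precision is limited by their number, 20. P-values take account only of the spread between these samples.

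The members, lists and tests were chosen with earlier results of these data known. Named genes were those of the 30 largest SDs, the 10 highest and 5 lowest r with each marker, the 10 largest residual SDs, the 5 smallest SDs at mean levels of 8 to 12, up to 3 members of largest SD per list, and the markers with stand-ins. Alternatives were other scalings, filters, array weights, sets of replicate numbers, stand-in markers and leaving out arrays. Fits without replicates 2, 13 and 20 and the slopes on Prg4, Adam7 and Defb43 were added after seeing the data.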

Additional observations from a re-analysis of the deposited data

How the results depend on the processing

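No paired analysis was possible because the results come from 1 group of arrays, with no groups compared. The median SD of probe sets (0.1954) was 0.1765 by median absolute deviation, 0.1810 in replicate numbers 1 to 10, 0.1683 without replicates 2, 13 and 20, and 0.1873 to 0.1985 without any 1 array. Of the count of probe sets with a slope on Akap4 (3454), array weights left 926, replicate numbers 1 to 10 1333, replicate numbers 11 to 20 1343, leaving out the 2 arrays farthest from the marker median 523, leaving out replicates 2, 13 and 20 473 and permutation of rho 967, while the fit on all 3 markers gave 6545; without any 1 array it was 1110 to 4728. The count on Cd74 (205) was 1182 with median centring, 577 among brighter probe sets, 0 in each set of replicate numbers, 29 with the number set as covariate, 72 without the 2 farthest arrays, 1211 with the stand-in Ptprc, 3871 in the fit on all 3 markers, 1711 in that fit after quantile normalization, 350 without replicates 2, 13 and 20, 130 by permutation of r, 107 by permutation of rho and 23 to 538 without any 1 array. The count on Hbb (4) was 2 in replicate numbers 1 to 10, 0 in 11 to 20, 2 without the 2 farthest arrays, 0 by permutation of r and of rho, and 3 to 4 without any 1 array. Causes were not tested.

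Among the markers, the r of Akap4 with Cd74 turned to 0.0153 in replicate numbers 1 to 10 and was -0.2640 to -0.1132 without any 1 array. The r of Akap4 with Hbb turned to -0.0591 after quantile normalization and -0.0329 in replicate numbers 11 to 20, and was -0.0675 to 0.1323 without any 1 array. The r of Cd74 with Hbb turned to -0.2681 in replicate numbers 11 to 20 and was 0.1737 to 0.4322 without any 1 array. The slope of Clu on Akap4 turned to -0.0160 without replicates 2, 13 and 20. Of the called slopes of named genes under settings that keep all arrays or leave out several, 701 on Akap4 kept direction and threshold and 71 fell short, 164 and 73 did so on Cd74, and 26 and 9 on Hbb. The slopes on Prg4, Adam7 and Defb43 numbered 1, 0 and 11 in replicate numbers 1 to 10, and 10, 53 and 1760 in 11 to 20.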
